A study of Homo sapiens with 12 samples.

Results

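The response of HCT116 cells to siLRH-1 #1, 1 of the 2 siRNAs against LRH-1 used in the study, was described across all measured genes. HCT116 is a human colorectal cancer cell line, grown here in McCoy's 5A medium with serum. The comparison took the 8 of the 12 HCT116 arrays whose labels gave siLRH-1 #1 or the control: 4 arrays of cells transfected with siLRH-1 #1 and 4 of cells transfected with siLUC, a non-targeting siRNA against luciferase, a firefly enzyme that human cells do not have. The remaining 4 arrays, of cells given siLRH-1 #2, served to show where the response to siLRH-1 #1 differed. Every group received 5 nM of its siRNA by reverse transfection with Lipofectamine RNAiMAX, and total RNA was prepared after 24 h. Each siRNA is a single duplex, so an effect of LRH-1 loss and an effect of that duplex on other transcripts cannot be told apart within the comparison with siLUC.

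LRH-1 (liver receptor homologue 1) is an orphan nuclear receptor that binds DNA as a monomer and regulates transcription. In liver and gut it is known for its part in bile acid and cholesterol handling and in renewal of the intestinal epithelium, and it has been linked to growth of cancers of the gut, pancreas and breast. An siRNA guides the RNA-induced silencing complex to a matching mRNA, and it can also lower transcripts that match only the short seed of its guide strand, which is why a gene is usually tested with more than 1 siRNA. NR5A2, the gene for LRH-1, was not analysed here, and the depth of its knockdown is therefore not given.

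Expression was given as quantile-normalized log2 intensities of 16381 probes, of which 9910 carried a single gene symbol, for 7452 genes. These are not all probes of the array, and every count and every ranking by size covers only them. The brightest probe stood for a gene. Differences are on the log2 scale, siLRH-1 #1 minus siLUC, from 1 limma model over the 12 arrays. Their standard errors lay between 0.06 and 0.14 for the genes named in the text. A probe was called at a Benjamini-Hochberg adjusted p under 0.05 over all probes. Within each group any pair of arrays correlated at 0.996 or more, and the medians of all arrays rounded to 6.49 or 6.50. Along the first principal component, with 36.2% of the variance, the siLRH-1 #1 arrays lay between 11.78 and 17.5 and all 8 other arrays were negative. Of 12 epithelial markers KRT19 and EPCAM were bright, at mean levels of 12.5 and 12.1, while 4 had a mean under 7 and the median of the list was 8.06. The fibroblast, leukocyte and endothelial lists, with only 4, 12 and 3 measured genes, had median levels of 6.21, 6.11 and 6.08, against 7.25 over all genes. The log2 of the summed signal of 12 epithelial markers was 13.91 to 13.97 with siLUC and 13.86 to 13.94 with siLRH-1 #1, and that of 12 leukocyte markers 10.11 to 10.20 and 10.12 to 10.18. The methods call the 4 samples of a group independent biological replicates, while the 12 arrays fell into a set of 5 and a set of 7 with nearly equal probe means. The set of 5 held siLUC replicate 2, siLRH-1 #1 replicate 3 and replicates 2 to 4 of siLRH-1 #2, so each group of the main comparison had 1 array in it. Without those 2 arrays siLRH-1 #1 changed 2205 probes in place of 2813.

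Transfection with siLRH-1 #1 was followed by a broad change, and among the probes analysed here the large changes were mostly falls. The paper lists larger rises with this siRNA, on probes that are not among these. Of the 16381 probes, 1319 rose (8.05%) and 1494 fell (9.12%), so that 17.2% were called. Counted by gene, 1752 of 7452 changed (23.5%), with 834 rises (11.2%) and 918 falls (12.3%). Most changes were small, with a median of 0.28 for the genes that rose and -0.30 for those that fell. Beyond 1.5-fold there were 42 rises and 86 falls, beyond 2-fold 2 rises and 19 falls, and beyond 3-fold no rise and 3 falls, of CCND3, LASP1 and FAM3C, all among the probes analysed here. The arrays of the 2 groups did not overlap for 1955 genes (26.2%). By comparison siLRH-1 #2, set against the same siLUC arrays, had 936 called probes (5.71%) with 1 rise and 4 falls of genes beyond 2-fold. Genes that changed were brighter than the rest, with median levels of 8.30 for rises, 8.15 for falls and 6.81 for genes not called. Quantile normalization sets the arrays to a common distribution, and in RNA from whole cultures less RNA per cell cannot be told apart from a smaller share of cells that make the transcript.

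**Figure D1:**
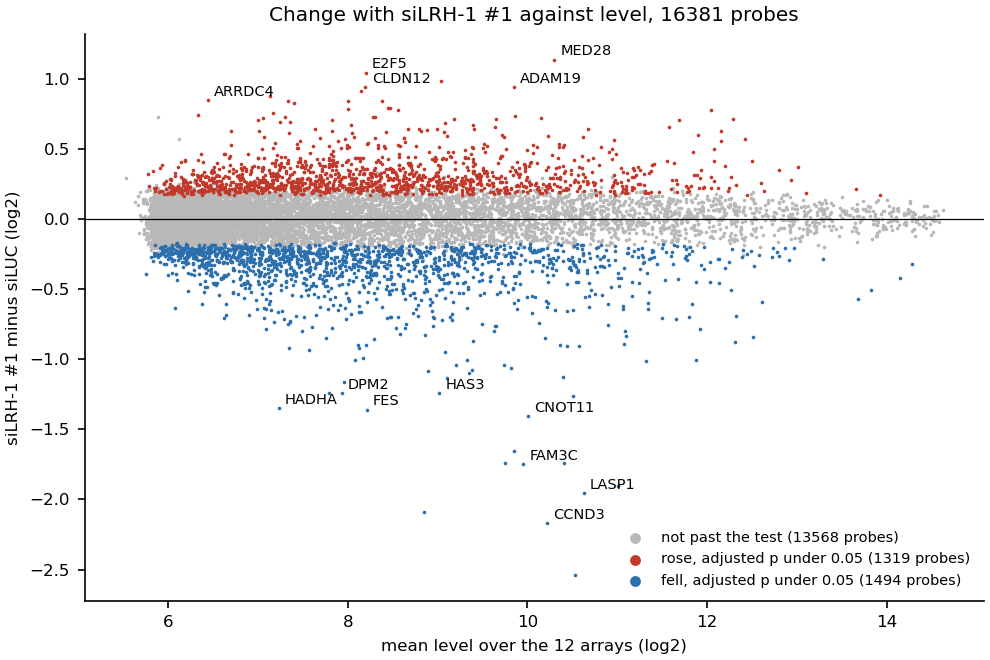
Difference between siLRH-1 #1 and siLUC (log2, y axis) against the mean level over the 12 arrays (log2, x axis), 1 point for each of the 16381 probes. Among these probes falls, in blue, reach -2.54 while no rise, in red, exceeds 1.14.

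The largest fall of a named gene was that of CCND3, cyclin D3, a partner of the kinases CDK4 and CDK6 that drive entry into the cell cycle. Its log2 level was 11.069, 10.599, 11.047 and 11.196 on the siLUC arrays and 8.903, 8.997, 8.388 and 8.946 with siLRH-1 #1. All 4 arrays of siLRH-1 #1 lay far below the lowest siLUC array, a difference of -2.17 (standard error 0.14, adjusted p = 6.93e-11, limma), or 4.5-fold. LASP1, a LIM and SH3 domain protein of actin-based adhesions, went from 11.52, 11.07, 11.62 and 11.37 to 9.38, 9.40, 9.25 and 9.73. It was 3.88-fold lower, with no overlap between the groups (adjusted p = 2.19e-11, limma). FAM3C, a secreted protein linked to epithelial to mesenchymal transition, stood at 10.71, 10.07, 10.70 and 10.65 with siLUC and at 8.88, 8.90, 8.42 and 8.93 with siLRH-1 #1. Its brighter probe fell by 1.75 and its other probe fell by 1.66.

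Further falls of more than 2-fold took in genes of mRNA decay, fat metabolism and signalling. CNOT11, a subunit of the CCR4-NOT deadenylase that shortens poly(A) tails, read 10.63, 10.29, 10.60 and 10.60 with siLUC and 9.22, 9.19, 8.80 and 9.29 with siLRH-1 #1, a fall of 2.65-fold (adjusted p = 7.53e-11, limma). The lowest siLUC array, at 10.29, stood well above the highest siLRH-1 #1 array. FES, a tyrosine kinase, read 8.80, 8.51, 8.84 and 8.87 against 7.53, 7.36, 7.30 and 7.39, and was 2.57-fold lower. HADHA, the alpha subunit of the mitochondrial trifunctional protein of fatty acid oxidation, read 7.86, 7.47, 7.72 and 7.84 against 6.43, 6.50, 6.11 and 6.44, and was 2.55-fold lower. In both genes every siLRH-1 #1 array lay below every siLUC array. GPAT3, an acyltransferase of triglyceride synthesis, was 2.2-fold lower. FBXW11, the substrate-binding F-box protein of a ubiquitin ligase that acts on beta-catenin and I-kappa-B, and ELK1, an ETS transcription factor activated by MAP kinases, were 2.14-fold and 2.11-fold lower. FBXW11 read 9.86, 9.45, 9.78 and 9.71 with siLUC and 8.70, 8.67, 8.32 and 8.72 with siLRH-1 #1, and its dimmer probe fell by 0.51. For ELK1 the readings were 9.35, 9.05, 9.36 and 9.32 against 8.21, 8.27, 7.89 and 8.39. The groups of arrays did not overlap for either gene.

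Among the 12 largest falls were 2 genes of the same route, the supply of mannose for protein glycosylation in the endoplasmic reticulum. DPM2 is a regulatory subunit of dolichol-phosphate mannose synthase, and DOLK is the kinase that makes dolichol phosphate. DPM2 read 8.45, 8.39, 8.51 and 8.49 with siLUC and 7.33, 7.23, 7.01 and 7.31 with siLRH-1 #1. DOLK read 8.39, 8.08, 8.27 and 8.48 against 7.17, 7.15, 6.95 and 7.00. Each was 2.36-fold lower, with every siLRH-1 #1 array below every siLUC array (adjusted p = 2.19e-11 and 6.16e-11, limma). HAS3, a hyaluronan synthase, was also 2.36-fold lower, at 8.56, 8.43, 8.69 and 8.45 against 9.76, 10.03, 9.58 and 9.72. By its brighter probe HAS3 was the exception among the falls of more than 2-fold. The levels of that probe with siLRH-1 #2 (8.61, 8.69, 8.87 and 8.82) overlapped those with siLRH-1 #1. The dimmer HAS3 probe, at a mean level of 6.37, did separate the siRNAs. Its difference between siLRH-1 #1 and siLRH-1 #2 was -0.30 (adjusted p = 0.00216, limma), where that between siLRH-1 #1 and siLUC was -0.61.

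**Figure D2:**
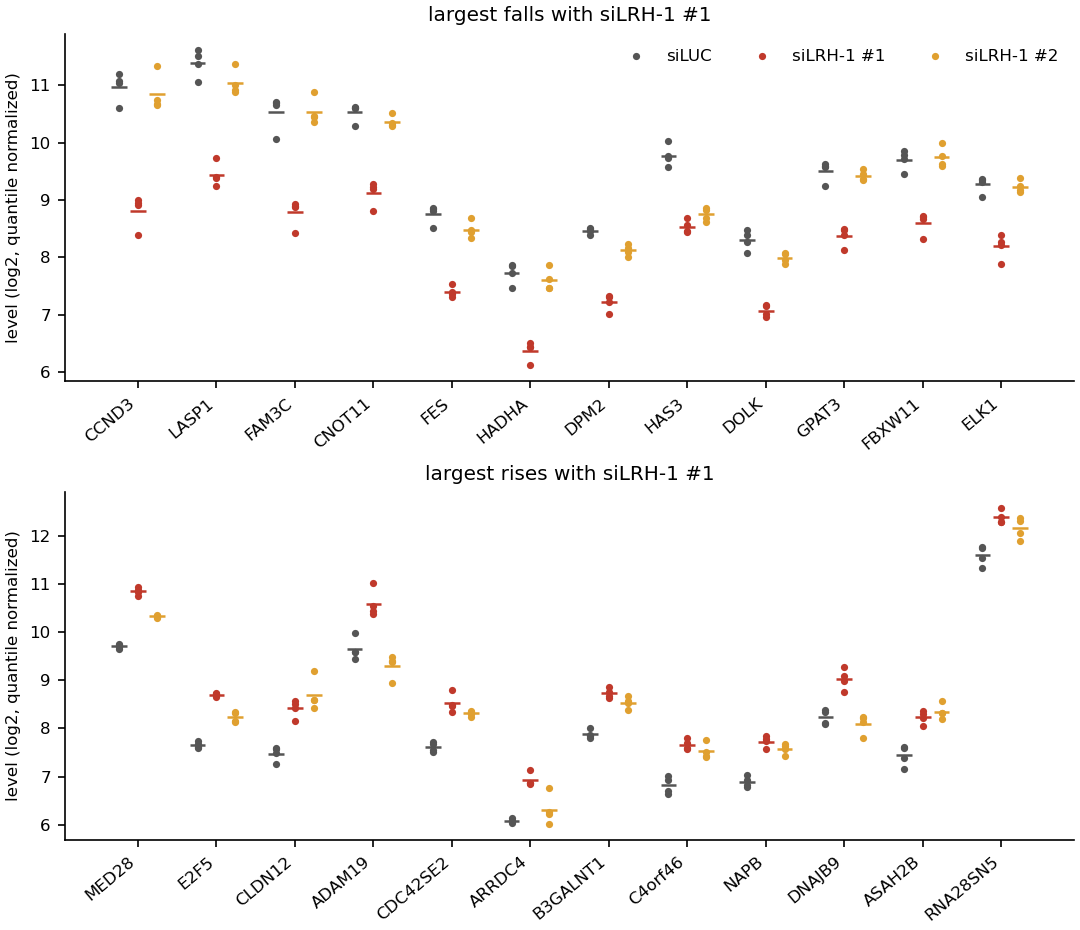
Log2 level on each of the 12 arrays (points) and group mean (line) for the 12 largest falls and the 12 largest rises with siLRH-1 #1, with siLUC in grey, siLRH-1 #1 in red and siLRH-1 #2 in yellow. Among the falls the yellow points of HAS3 overlap the red ones. The difference of siLRH-1 #1 from siLRH-1 #2 is smaller than that from siLUC for DPM2 (-0.90 and -1.24), DOLK (-0.92 and -1.24) and FES (-1.08 and -1.36). For several rises (CLDN12, NAPB, ASAH2B) the yellow points lie near the red ones.

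Among the probes analysed here, those of MED28 and E2F5 were the ones that rose more than 2-fold. MED28 is a subunit of the Mediator complex, which links transcription factors to RNA polymerase II, and E2F5 is a member of the E2F family that acts mainly as a repressor. MED28 read 9.76, 9.65, 9.68 and 9.74 with siLUC and 10.93, 10.87, 10.83 and 10.76 with siLRH-1 #1. The arrays were tight within groups and the rise was 2.2-fold (adjusted p = 8.34e-12, limma). E2F5 read 7.61, 7.75, 7.59 and 7.68 against 8.74, 8.72, 8.65 and 8.71, a rise of 2.06-fold. For both genes siLRH-1 #2 lay between, with differences from siLUC of 0.62 and 0.58, and siLRH-1 #1 was the higher by 0.52 and 0.47 (adjusted p = 1.44e-06 and 1.61e-05, limma). CLDN12, a claudin, rose from 7.60, 7.25, 7.57 and 7.48 to 8.43, 8.57, 8.16 and 8.51, 1.92-fold. ADAM19, a membrane metalloproteinase, rose as much, from 9.45, 9.99, 9.58 and 9.59 to 10.55, 10.43, 11.01 and 10.38. These 2 genes differed in their second readout, since with siLRH-1 #2 CLDN12 was 1.22 above siLUC and ADAM19 0.36 below it.

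The other large rises were those of CDC42SE2, a CDC42 effector, ARRDC4, an arrestin-domain protein, B3GALNT1, a glycosyltransferase, C4orf46, NAPB, a vesicle fusion factor, DNAJB9, an endoplasmic reticulum chaperone, and ASAH2B, with differences of 0.79 to 0.91. The dimmer probe of CDC42SE2 rose by only 0.19, while both other probes of B3GALNT1 were called as well. ARRDC4 read 6.07, 6.14, 6.04 and 6.07 with siLUC and 6.86, 6.87, 6.84 and 7.14 with siLRH-1 #1, near the dim end of the scale, with no overlap. The twelfth rise was that of RNA28SN5, the 28S ribosomal RNA, from 11.75, 11.34, 11.54 and 11.77 to 12.58, 12.38, 12.29 and 12.28. The other 28S probe rose by 0.50 and the 18S probe by 0.33. With siLRH-1 #2 these 3 probes were 0.56, 0.41 and 0.09 above siLUC. The part of ribosomal RNA carried into the labelled samples in any other change was not tested.

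To find what set siLRH-1 #1 apart, its arrays were compared with those of siLRH-1 #2 in the same model. Of the 7452 genes 1346 (18.1%) differed between the siRNAs, 609 higher (8.17%) and 737 lower (9.89%) with siLRH-1 #1. Set against siLUC and against siLRH-1 #2 alike, 330 genes were higher with siLRH-1 #1 (4.43%) and 520 were lower (6.98%), together 11.4%, or 1302 probes (7.95%). These comparisons share the siLRH-1 #1 arrays, so a shared deviation of those arrays enters both. Without siLRH-1 #1 replicate 3 the probes that differed between the siRNAs went from 2068 (12.6% of all probes) to 1302, and without siLRH-1 #2 replicate 1 to 1299. Within the set of 7 arrays, where 1 siLRH-1 #2 array remains, they numbered 991.

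The larger the fall, the more often it was also a fall against siLRH-1 #2. Of 19 falls of more than 1 log2 unit 18 were also lower than siLRH-1 #2, of 105 falls between 0.5 and 1 there were 99 (94.3%), and of 291 falls under 0.25 there were 82 (28.2%). Among rises between 0.5 and 1 the count was 44 of 74 (59.5%). The median siLRH-1 #2 difference was -0.12 in the group of largest falls and 0.29 in the rises of 0.5 to 1. A larger change is also easier to call against either group, and rises and falls were not tested against each other in this respect.

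In 411 genes that fell (5.52%) and 251 that rose (3.37%) the call held against both groups while siLRH-1 #2 had an unadjusted p over 0.05 against siLUC. Those with the largest differences are shown with their intervals. CCND3, with siLRH-1 #2 arrays at 11.35, 10.74, 10.66 and 10.67, had a difference of -2.05 between siLRH-1 #1 and siLRH-1 #2 (adjusted p = 7.73e-10, limma). FAM3C, at 10.89, 10.47, 10.45 and 10.36 with siLRH-1 #2, had one of -1.76, and CNOT11, at 10.51, 10.34, 10.29 and 10.31, one of -1.24. None of the siLRH-1 #2 arrays reached down to the siLRH-1 #1 arrays in these genes. HEBP2, a heme-binding protein, MAPKAPK5, a kinase downstream of p38-related MAP kinases, and GLE1, an mRNA export factor, completed the 10 largest falls, with differences from siLRH-1 #2 of -1.11, -1.03 and -0.92.

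The rises apart from siLRH-1 #2 were smaller, with DNAJB9 at the head. DNAJB9, a chaperone induced by the unfolded protein response, read 8.09, 8.38, 8.12 and 8.34 with siLUC, 8.98, 8.75, 9.28 and 9.09 with siLRH-1 #1, and 7.80, 8.24, 8.21 and 8.13 with siLRH-1 #2. The siLRH-1 #1 arrays were above all others, by 0.79 against siLUC and 0.93 against siLRH-1 #2 (adjusted p = 2.86e-06 and 6.58e-07, limma). KDM5B, a demethylase of histone H3 lysine 4, read 6.91, 7.28, 6.80 and 6.89 with siLUC and 7.72, 7.59, 7.89 and 7.70 with siLRH-1 #1, and the siLRH-1 #2 arrays lay between 6.59 and 6.91. EGR1, an immediate early transcription factor, read 9.24, 9.56, 9.36 and 9.38 against 9.88, 9.74, 10.05 and 10.00, and was 0.66 above siLRH-1 #2. CPOX, an enzyme of heme synthesis, read 10.77, 10.80, 10.76 and 10.65 against 11.24, 11.21, 11.48 and 11.29. In all 3 genes the siLRH-1 #1 arrays stood clear of the siLUC arrays. The remaining 6 were ELMOD2, LRRC8B, a volume-regulated anion channel subunit, BRWD1, DDX10, an RNA helicase of ribosome biogenesis, MSI2, an RNA-binding protein of progenitor cells, and DDRGK1, a factor of protein modification by UFM1, with rises of 0.51 to 0.70. For BRWD1 the rise rested on the brightest of its 5 probes, since the others differed by 0.00 to 0.12.

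**Figure D3:**
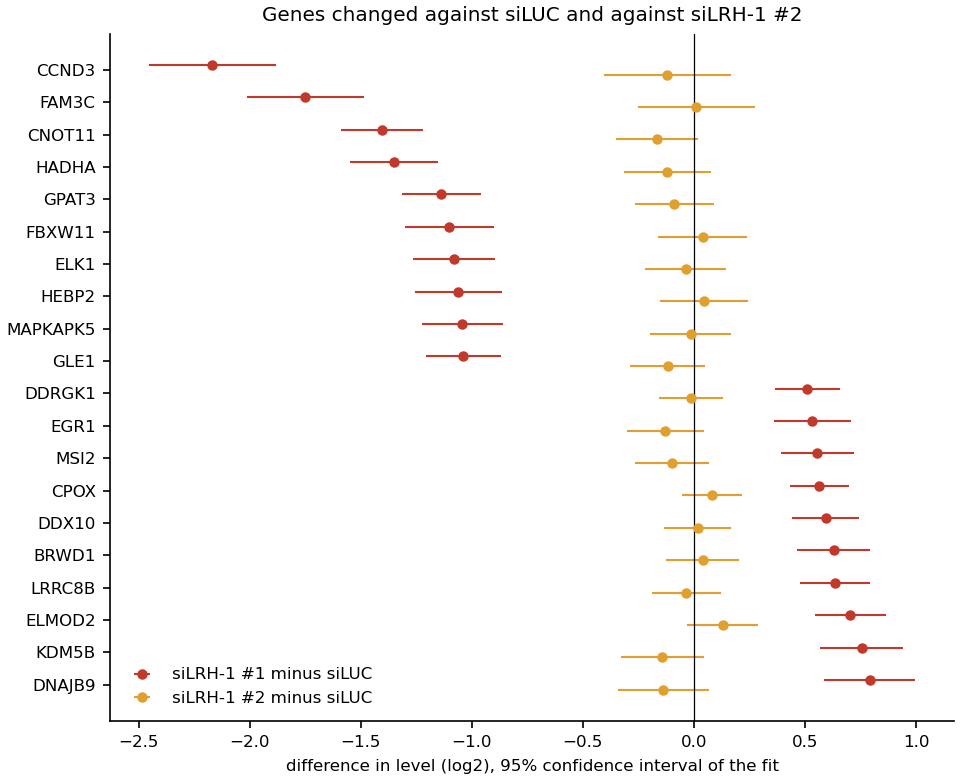
Difference from siLUC (log2, x axis) with its 95% confidence interval for the 10 largest falls and 10 largest rises called against siLUC and against siLRH-1 #2, with siLRH-1 #1 in red and siLRH-1 #2 in yellow. The genes were chosen for a siLRH-1 #2 difference near 0, so the place of the yellow points is a description, while the red points reach -2.17 for CCND3 and 0.79 for DNAJB9.

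Opposite calls were rare. ATXN7L3B, HCCS, CPLX1 and LRRC8A were the 4 genes that rose with siLRH-1 #1 and fell with siLRH-1 #2, each against siLUC, and no gene analysed here did the reverse. The rises of these genes were weakly held. Those of ATXN7L3B and HCCS did not pass the test without siLUC replicate 1 or without siLRH-1 #1 replicate 3, nor without siLUC replicate 3 for ATXN7L3B and siLUC replicate 4 for HCCS, and none of the 4 passed with each probe's own variance. LRRC8A, the obligatory subunit of volume-regulated anion channels, was 0.51 above siLUC with siLRH-1 #1 and 0.60 below it with siLRH-1 #2. The siRNAs thus lay 1.10 apart (adjusted p = 2.41e-06, limma). HCCS, which attaches heme to cytochrome c, had differences of 0.32 and -0.35.

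Fixed lists of genes were then read for the biology of the response, each count against the 11.2% of all genes that rose and the 12.3% that fell, and each median against 0.01 over all genes. Genes that were called were brighter than the rest and the lists differ in level. The part of level in the counts of a list was not tested. The genes of the G1/S transition and DNA replication fell more often than not among those called. Of 24 measured members 10 fell and 3 rose, with a median of -0.11. The list was bright, with a median level of 9.80 and 2 of 24 genes under 7, against 7.25 and 3374 of 7452 over all genes. The MCM proteins form the helicase that unwinds DNA at replication forks, together with CDC45 and the GINS complex. CDC45 read 10.18, 10.09, 10.32 and 10.35 with siLUC and 9.56, 9.93, 9.48 and 9.75 with siLRH-1 #1, a fall of 0.56 (adjusted p = 3.52e-05, limma). MCM10, which loads replication proteins at origins, read 10.05, 9.75, 10.17 and 10.14 against 9.59, 9.60, 9.55 and 9.51. In both the siLRH-1 #1 arrays were lower than every siLUC array and every siLRH-1 #2 array. Of 7 MCM genes measured 4 fell (MCM4 by 0.45, MCM6 by 0.32, MCM7 by 0.34 and MCM10 by 0.47) and 1 rose, MCM3, by 0.25. The dimmer MCM4 probe was not called (-0.08, adjusted p = 0.478, limma), and the dimmer MCM3 probe rose by 0.40. The dimmer MCM10 probe fell by 0.29. A dimmer MCM7 probe fell by 0.37, while its dimmest differed by 0.01 and was not called. E2F2 and CDC25A, which promote S phase entry, fell by 0.35 and 0.37. GINS2 and the flap endonuclease FEN1 fell by 0.23 and 0.21, but both calls were lost in 8 of 25 alternatives. GINS2 did not pass without siLUC replicate 1, siLUC replicate 4 or siLRH-1 #1 replicate 3, and FEN1 did not pass without siLUC replicate 1, 3 or 4 or siLRH-1 #1 replicate 1 or 4. The one large rise of the list was that of E2F5. Against siLRH-1 #2, 9 of the 24 were lower with siLRH-1 #1 and 1 was higher.

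Among the genes of G2 and mitosis that were called, rises outnumbered falls. Of 50 measured 12 rose, 4 fell and 34 were not called, with a median of 0.11, and with siLRH-1 #2 the counts were 16 and 1, where 4.41% of all genes rose and 3.97% fell. Between the siRNAs 4 members were higher and 8 were lower with siLRH-1 #1. CCNB1, cyclin B1, the activator of CDK1 at mitotic entry, read 9.84, 9.76, 9.70 and 9.89 with siLUC and 10.36, 10.40, 10.27 and 10.26 with siLRH-1 #1. It was 1.44-fold higher with no overlap (adjusted p = 1.24e-06, limma). CCNB2, CDK1 and the kinesin KIF4A rose by 0.37, 0.38 and 0.42. BIRC5, survivin, which acts in chromosome segregation and against apoptosis, went against this with 9.86, 9.89, 9.58 and 9.78 against 10.47, 10.22, 10.45 and 10.47. Both BIRC5 probes fell, by 0.62 and 0.68, and its level with siLRH-1 #1 was 0.68 below that with siLRH-1 #2 (adjusted p = 8.32e-07, limma). NUF2, a kinetochore protein, fell by 0.42. The share of cells in each phase was not measured, so a change per cell and a change in phase shares cannot be told apart.

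CDKN1A, the CDK inhibitor p21 and a target of p53, read 11.94, 11.65, 11.77 and 11.82 with siLUC and 12.23, 12.24, 12.10 and 12.26 with siLRH-1 #1. It rose 1.33-fold (adjusted p = 6.19e-05, limma), with all arrays above the siLUC arrays, and did not pass the test between the siRNAs (difference -0.04, adjusted p = 0.821, limma). In all, 7 of 21 p53 targets rose and 1 fell, with a median of 0.16. FBXO22, SUSD6 and EPHA2 rose by 0.36, 0.35 and 0.35, and were also higher than with siLRH-1 #2, by 0.36, 0.38 and 0.22. The EPHA2 call against siLRH-1 #2 was lost in 9 of 25 alternatives. Without siLUC replicate 2 and siLRH-1 #1 replicate 3 the counts of the list were 6 and 0.

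**Figure D4:**
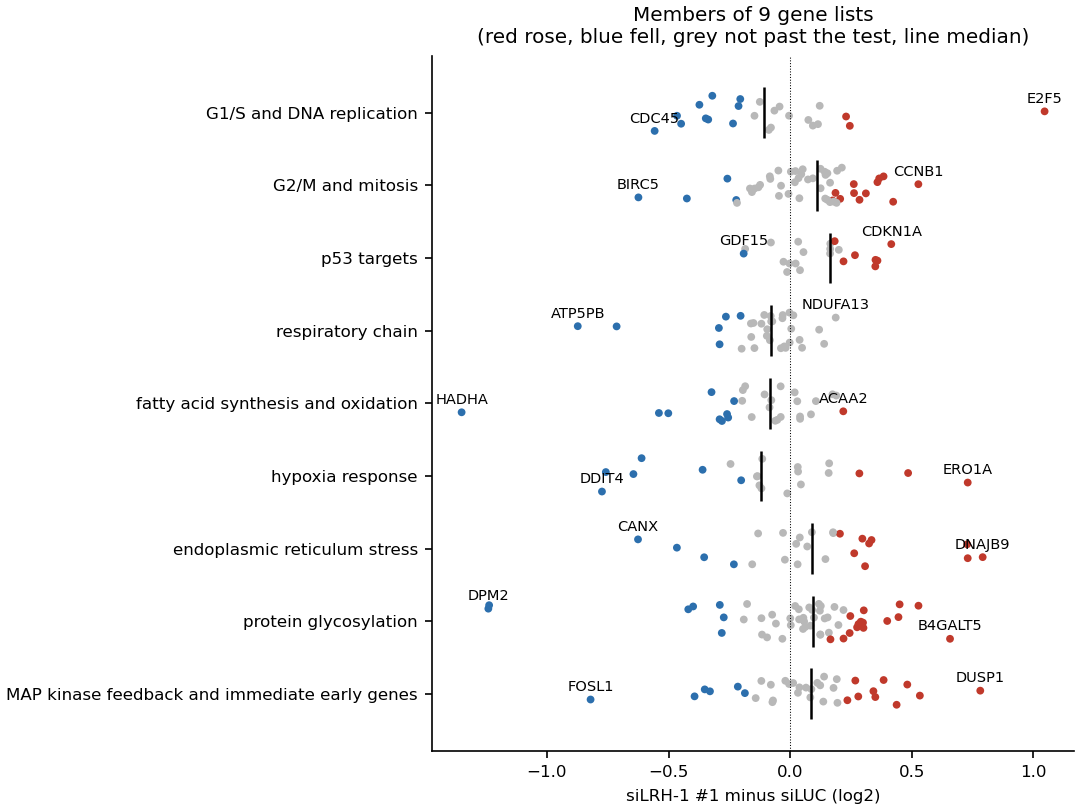
Difference between siLRH-1 #1 and siLUC (log2, x axis) for each measured member of 9 gene lists, with called rises in red, called falls in blue, other members in grey and the list median as a black line. Medians range from -0.12 for the hypoxia list to 0.16 for p53 targets, and the members named are the lowest and highest of each list.

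The falls of the respiratory chain list lay mostly in ATP synthase, the enzyme that makes ATP from the proton gradient. Of 33 members 6 fell and none rose, with a median of -0.08. ATP synthase gave 5 of the 6, out of 13 subunits measured, while 0 of 8 NDUF genes of complex I and 0 of 10 COX genes of complex IV were called. ATP5PB, a subunit of the peripheral stalk, read 12.77, 12.29, 12.67 and 12.73 with siLUC and 11.75, 11.88, 11.62 and 11.71 with siLRH-1 #1, a fall of 1.83-fold (adjusted p = 5.35e-08, limma). ATP5MC1, a gene of the c-ring, read 12.01, 11.79, 12.03 and 12.03 against 11.18, 11.41, 11.21 and 11.21, a fall of 1.64-fold. No siLRH-1 #1 array of either gene reached the siLUC range, and their second probes fell by 1.26 and 0.75. They were 0.85 and 0.51 lower than with siLRH-1 #2. The falls of ATP5ME and ATP5MG were smaller, 0.26 and 0.20, and none of their dimmer probes was called. ATP5MG lost its call without siLUC replicate 2 and siLRH-1 #1 replicate 3. Cytochrome c, CYCS, fell by 0.29. Of 71 mitochondrial ribosomal proteins 10 fell and 5 rose, with a median of 0.01, shares near or below those of all genes. The extremes were MRPL49 (-0.77) and MRPL54 (0.44). Within the set of 7 arrays the ribosomal counts were 5 and 2.

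Of 29 genes of fatty acid synthesis and oxidation, HADHA among them, 9 fell, 1 rose and 19 were not called, with a median of -0.08, and the 9 were also lower than with siLRH-1 #2. Not all of these were firm. The calls of ELOVL6 (-0.18) and ACADS (-0.22) against siLRH-1 #2 were lost in 19 of 25 and 6 of 24 alternatives. ACLY, which makes the cytosolic acetyl-CoA for lipid synthesis, fell by 0.54, ECI1, an isomerase of beta-oxidation, by 0.50, and CPT1A, the carnitine transferase that admits fatty acids to mitochondria, by 0.29. These genes act in opposite directions, ACLY in synthesis and the others in breakdown. In the sterol list FDPS fell by 0.52 while INSIG2 and HMGCS1 rose by 0.48 and 0.34, 3 falls and 2 rises in 14. Without siLUC replicate 2 and siLRH-1 #1 replicate 3 the sterol list had 1 fall and 2 rises.

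Of 21 genes of the hypoxia list 6 fell and 3 rose, and the transcript of the oxygen-regulated factor HIF1A itself was among the falls. HIF1A read 8.11, 8.03, 8.15 and 8.07 with siLUC and 7.47, 7.61, 7.30 and 7.54 with siLRH-1 #1. All 3 of its probes fell, by 0.61, 0.78 and 0.49, and it was 0.69 below its level with siLRH-1 #2 (adjusted p = 5.97e-06, limma). EGLN2, a prolyl hydroxylase that marks HIF proteins for destruction, read 11.17, 10.88, 11.15 and 11.18 against 10.45, 10.40, 10.03 and 10.47. DDIT4, an inhibitor of mTORC1 signalling, read 8.90, 8.74, 8.98 and 9.13 against 8.14, 8.03, 7.97 and 8.50. In these 3 genes the groups did not overlap. KDM3A, a histone demethylase induced by hypoxia, fell by 0.64. ERO1A, an oxidase of protein folding, and INSIG2 rose by 0.73 and 0.48, and neither passed the test between the siRNAs.

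The endoplasmic reticulum stress list had 9 rises and 4 falls in 25 genes, with a median of 0.09. Beside DNAJB9, ERO1A rose by 0.73 and FICD, an enzyme that modifies the chaperone BiP, by 0.73. CANX, calnexin, the lectin chaperone of newly made glycoproteins, fell from 8.71, 8.41, 8.58 and 8.63 to 7.89, 8.13, 7.82 and 7.99, and its second probe fell by 0.59. The groups were apart, and CANX was 0.64 lower than with siLRH-1 #2 (adjusted p = 4.88e-06, limma). DERL2, a component of endoplasmic reticulum associated degradation, fell by 0.47. Of 54 glycosylation genes 15 rose and 7 fell, with a median of 0.09. The falls were led by DPM2 and DOLK, with DPM3, another dolichol-phosphate mannose synthase subunit, 0.40 lower. The rises included ALG14 and ALG5, which build the dolichol-linked sugar, by 0.53 and 0.45, the mannosidase MAN1A2 by 0.45, and the galactosyltransferase B4GALT5. B4GALT5 read 11.22, 11.08, 11.20 and 11.17 with siLUC against 11.78, 11.91, 11.69 and 11.92, with no overlap. Its level with siLRH-1 #2 was 0.57 above siLUC.

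In the proteoglycan and hyaluronan list 8 of 22 genes rose and 2 fell. CHPF, a chondroitin polymerizing factor, rose by 0.64, and EXT1 and CHSY1, which build heparan and chondroitin chains, rose by 0.34 and 0.29, while HAS3 and the hyaluronidase HYAL3 (-0.35) fell. The integrin and matrix list had 6 rises and 6 falls in 31 genes. Integrins ITGB1, ITGAV and ITGA5 rose by 0.60, 0.36 and 0.32, and ITGA5 was 0.57 higher than with siLRH-1 #2 (adjusted p = 1.51e-05, limma). ITGB4, an integrin of hemidesmosomes, fell by 0.35 and had a difference of -0.27 from siLRH-1 #2 (adjusted p = 0.0063, limma). CCN1, a matrix protein induced by growth signals, rose by 0.59. ITGB3BP, which despite its name is best known as a centromere protein, fell by 0.70. In the actin list LASP1 was 1 of 4 called genes in 43 (9.3%), beside CDC42SE2, LIMK2 (0.31) and CDC42EP1 (-0.46).

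MAP kinase feedback and immediate early genes changed in 16 of 36 cases, 10 up and 6 down. DUSP1, a phosphatase that switches off MAP kinases, read 8.21, 8.09, 8.15 and 8.22 with siLUC and 8.98, 8.85, 9.02 and 8.95 with siLRH-1 #1. It rose 1.72-fold (adjusted p = 1.56e-09, limma), apart from the siLUC arrays and 0.40 above siLRH-1 #2. FOS, DUSP3 and the EGF-family ligand HBEGF rose by 0.44, 0.48 and 0.38. FOSL1, the AP-1 subunit FRA1, fell from 9.05, 8.96, 9.02 and 9.02 to 8.22, 8.07, 8.20 and 8.28, 1.77-fold, with its siLRH-1 #2 arrays in between. ETS2 fell by 0.39. ERBB3, a receptor of the EGF receptor family, read 7.74, 7.53, 7.69 and 7.57 with siLUC and 6.83, 7.09, 6.68 and 6.93 with siLRH-1 #1, with no overlap. The fall of 0.75 was seen on its brightest probe, and the other 2 differed by -0.10 and -0.05. FGFR3 and MET, growth factor receptors, rose by 0.58 and 0.48, though the second FGFR3 probe fell by 0.37. AKT1 and ABL1 fell by 0.27 and 0.40.

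Of 39 genes of small RNA pathways and mRNA decay 7 rose and 7 fell. After CNOT11 the largest fall was that of EXOSC3, a subunit of the RNA exosome, from 11.87, 11.55, 11.84 and 11.62 to 10.74, 10.83, 10.56 and 10.71. Both EXOSC3 probes fell, by 1.01 and 1.12, with the groups apart and with siLRH-1 #1 0.83 below siLRH-1 #2 (adjusted p = 8.4e-08, limma). EDC3, an activator of decapping, fell by 0.46. DCP2, the decapping enzyme, AGO3 and DICER1 rose by 0.67, 0.46 and 0.39. DCP2 was not called between the siRNAs (difference -0.28, adjusted p = 0.0754, limma), while AGO3 was 0.33 higher with siLRH-1 #1. DHX15, a helicase of spliceosome recycling, fell by 0.60, although 17 of 21 splicing genes did not pass the test.

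Chromatin modifiers changed in both directions, 8 up and 9 down in 51. DNMT3B, a DNA methyltransferase that sets new methylation marks, read 8.11, 8.10, 8.04 and 8.10 with siLUC and 7.03, 7.05, 7.29 and 7.26 with siLRH-1 #1. It was 1.91-fold lower with no overlap (adjusted p = 1e-09, limma), 3 of its 4 probes fell, and it was 0.29 below siLRH-1 #2. KDM5B and HDAC3, a histone deacetylase, rose by 0.75 and 0.64, and HDAC3 stood 0.46 above siLUC with siLRH-1 #2 as well. EZH2, which methylates histone H3 at another lysine, fell by 0.33. Without siLUC replicate 2 and siLRH-1 #1 replicate 3 there were 5 rises and 8 falls in the chromatin list. Of 36 DNA repair genes 9 fell and 7 rose, with MUTYH and BRCA1 down by 0.51 and 0.47 and NBN and ERCC3 up by 0.43 and 0.35. Without siLUC replicate 1 the repair counts were 6 falls and 4 rises.

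Apoptosis regulators, with 9 falls and 5 rises in 37, moved on both sides of the process. HRK, a pro-apoptotic BH3-only protein, read 7.41, 7.26, 7.46 and 7.38 with siLUC and 6.66, 6.65, 6.44 and 6.65 with siLRH-1 #1, a fall of 1.72-fold (adjusted p = 1.31e-08, limma). The groups were apart, and HRK was 0.68 below siLRH-1 #2. The protease HTRA2, released from mitochondria in apoptosis, fell by 0.57 and the inflammatory caspase CASP4 by 0.47, while BAK1, which permeabilizes the outer mitochondrial membrane, rose by 0.53. Without the same pair of arrays there were 10 falls and 3 rises. Autophagy and lysosome genes rose in 11 and fell in 5 of 46 cases. Members of the same complex or family went apart there, with the proton pump subunits ATP6V1D (0.51) and ATP6V1B2 (-0.60) and the ATG8 proteases ATG4A (0.46) and ATG4B (-0.56). Of 36 ubiquitin ligase genes 9 rose and 4 fell, the falls being led by FBXW11, the scaffold CUL4A (-0.70) and CDC23, a subunit of the anaphase-promoting complex (-0.64). In the heat shock list 8 of 40 fell and 1 rose, led by DNAJC9 at -0.83, and with the mean of a gene's probes the counts were 11 and 3.

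**Figure D5:**
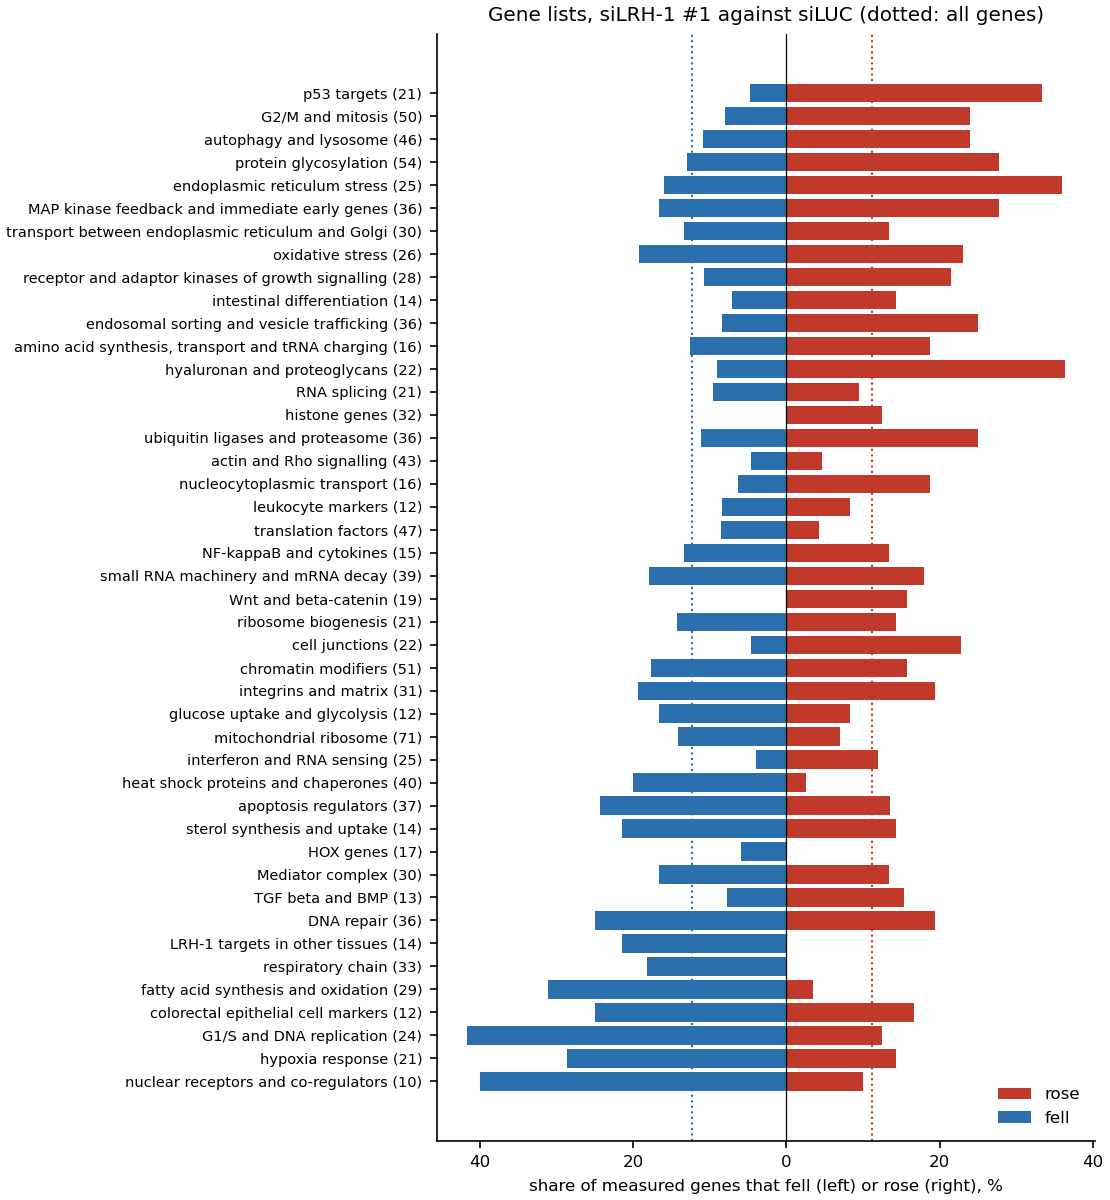
Share of the measured genes of each list (number in brackets) that rose (red, right) or fell (blue, left) with siLRH-1 #1 at an adjusted p under 0.05, for lists with at least 10 genes in order of their median difference. Dotted lines mark all genes, 11.2% up and 12.3% down, and falls reach far past the line in the list of G1/S and DNA replication (10 of 24). That list had a median level of 9.80 against 7.25 over all genes, and the part of level in the shares was not tested.

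Nuclear receptors and the genes that LRH-1 is known to regulate elsewhere gave small numbers. Of 14 genes named as LRH-1 targets in other tissues 3 fell and none rose: ABCC3, a transporter of organic anions, by 0.47, MYC by 0.33 and CPT1A by 0.29. Of the 14, 9 had a mean level under 7, and the median of the list was 6.23 against 7.25 over all genes. A fall of such dim genes could be missed. MYC was not called between the siRNAs (difference 0.04, adjusted p = 0.82, limma), while ABCC3 was 0.33 lower with siLRH-1 #1 than with siLRH-1 #2. Without siLUC replicate 3 the list had 5 falls. Among 10 nuclear receptors and co-regulators 4 fell and 1 rose, with NCOA1, a coactivator of steroid receptors, down by 0.44. Without siLRH-1 #1 replicate 4 there were 2 falls and 1 rise, and without siLRH-1 #1 replicate 1 there were 3 falls and no rise. Of 12 epithelial markers 3 fell, ELF3, KRT18 and KRT8 (-0.38, -0.25 and -0.23), and CDH1 and EPCAM rose by 0.31 and 0.22. None of these 5 was called between the siRNAs. The dimmer KRT18 probe, at a level of 7.95, was not called against siLUC (0.08, adjusted p = 0.542, limma).

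Several lists stayed near or below the background. None of 6 reference genes was called, with ACTB at 0.00 and GAPDH at -0.02, and neither of 2 cytosolic ribosomal proteins was. Of 17 HOX genes 1 fell, of 32 histone genes 4 rose, and of 47 translation factors 4 fell and 2 rose. Of 25 interferon and RNA-sensing genes 3 rose and 1 fell, with IFIT1, an interferon-induced RNA-binding protein, highest at 0.29. In the Wnt list 3 of 19 rose, AXIN2, a target and brake of the pathway, by 0.45. Within the set of 7 arrays 1 Wnt gene and 1 interferon gene rose.

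Where a gene had more than 1 probe the others gave a check on the call that did not enter it. For 552 genes whose brightest probe was called, 626 of 738 other probes had the same sign, 312 were called in the same direction and 11 in the opposite one. Over all 16381 probes 1319 rose (8.05%) and 1494 fell (9.12%). Probes without a single gene symbol numbered 6471, with a median level of 6.15, and smaller shares of them were called, 269 rising and 319 falling. They included 5 of the 9 probes that fell by more than 3-fold, and the lowest of all, at -2.54, was one of these.

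Promoter sequence was read for the element that LRH-1 binds as a monomer, a GGTCA or GGCCA core preceded by CAA, to give context to the genes that moved. RefSeq promoters (GRCh38.p14, 250 bases before to 50 after a start site) were searched on both strands for CAAGGTCA and CAAGGCCA. A match was found in 2.9% of all promoters, each counted singly. The other shares are by gene, where a match in any promoter of the gene counts, and so are not on the same scale. They were 3.42% of 5903 tested genes, 19 of 697 genes that rose (2.73%) and 27 of 769 that fell (3.51%). Several of the genes named had a match, BRCA1 (down by 0.47) and CDC42EP1 (down by 0.46) among them. Shown as examples are MSI2 (up by 0.56), ATP5MG, a subunit of ATP synthase (down by 0.20), and ALDOC, an aldolase of glycolysis (down by 0.22). The match is in capitals, written TGACCTTG where it lies on the other strand. The windows lie at chr17:57255627-57255686 (plus strand), chr11:118401545-118401604 (plus strand) and chr17:28577069-28577128 (minus strand). The call of ALDOC was lost without siLUC replicate 1 or 4 or without siLRH-1 #1 replicate 2. A match is a description of the sequence and not evidence of binding.
MSI2: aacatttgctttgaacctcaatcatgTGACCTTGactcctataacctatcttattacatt
ATP5MG: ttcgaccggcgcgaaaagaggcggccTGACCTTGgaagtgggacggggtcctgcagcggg
ALDOC: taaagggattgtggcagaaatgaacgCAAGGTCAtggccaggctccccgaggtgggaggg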

How the data were processed

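Expression was measured in 12 HCT116 samples, 4 for each of 3 siRNAs, on Illumina HumanHT-12 v4 beadchips. The authors pre-processed the arrays with GenomeStudio, kept probes whose detection p-value was 0.05 or less in at least 1 sample, and deposited log2 values that were quantile-normalized in Partek Genomics Suite. Depth does not apply to arrays, and 4 samples a group limit the precision. A second deposited table of non-normalized signals was not used here, since its 24 columns of signals and detection p-values match no sample label. Gene symbols came from the platform annotation: of 16381 probes 9910 had 1 symbol, 4 several and 6467 none, and 9904 of the first matched RefSeq with 0 changed.

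The deposited log2 values were fitted with limma 3.58.1 in R 4.3.3, with 3 group means, empirical Bayes variances (9 residual and 14.6 prior degrees of freedom) and Benjamini-Hochberg adjustment over all probes. Tables and plots used Python 3.11.15, pandas 2.3.3 and matplotlib 3.10.9, and the fit was tested on simulated data. Named genes were the 12 largest rises and falls with arrays apart, the 10 largest in each direction called against siLUC and siLRH-1 #2 but not with siLRH-1 #2, up to 6 members of each list and CDKN1A. Other genes, and the genes shown with array values, were chosen after their values were seen, and the comparison and the lists were chosen with earlier results of these data known. Alternatives changed the variance model, filter, offset, centring, threshold, blocks and the arrays included.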

Additional observations from a re-analysis of the deposited data

Results flagged for a closer look

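In 16 of 117 groups of 4 arrays (39 genes, 3 groups each) a single array lay apart from the other 3 by more than Dixon's critical share of the group's range, which chance exceeds in about 1 in 20 groups. The number given for each is the gap to the nearest array as a share of the range. With siLUC, replicate 2 was the lowest array for FAM3C (10.07, 0.914), CNOT11 (10.29, 0.911), ELK1 (9.05, 0.866), BIRC5 (10.22, 0.899), ATP5MC1 (11.79, 0.938) and EGLN2 (10.88, 0.913), and replicate 3 for DNMT3B (8.04, 0.922). With siLRH-1 #1, replicate 3 was the lowest for CCND3 (8.39, 0.846), FAM3C (8.42, 0.896), FBXW11 (8.32, 0.868), EGLN2 (10.03, 0.853) and HRK (6.44, 0.936). In the same group replicate 2 was the highest for ATP5MC1 (11.41, 0.874) and replicate 4 for ARRDC4 (7.14, 0.896). With siLRH-1 #2, replicate 1 was the highest for CCND3 (11.35, 0.880) and the lowest for KDM5B (6.59, 0.971).

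Of the 16 arrays, 11 were siLUC replicate 2 or siLRH-1 #1 replicate 3, the members of the set of 5 arrays in those groups. siLRH-1 #2 replicate 1 is the only array of its group outside that set. For the genes that fell, the low siLUC array brought the groups closer together and the low siLRH-1 #1 array moved them further apart. The part of the array set in these values was not tested.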

How the results depend on the processing

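The 2813 probes called for siLRH-1 #1 against siLUC ranged from 2350 to 2800 with 1 array left out, and became 302 when tested against a fold of 1.2 and 1715 at an adjusted p under 0.01. Against siLRH-1 #2 the 2068 became 198 and 1194 under those tests, 991 within the set of 7 arrays, 1302 without siLUC replicate 2 and siLRH-1 #1 replicate 3, and 1299 to 2055 with 1 array left out. For siLRH-1 #2 against siLUC the 936 became 44 and 466, 367 with each probe's own variance, 1428 with the array set as a block, 366 within the set of 7, 545 without that pair of arrays, and 498 to 957 with 1 left out, the lowest without siLRH-1 #2 replicate 1 and 514 without siLUC replicate 2. The 1302 called against both groups became 123, 761, 569 within the set of 7, and 879 to 1320. Samples share only a number, since residuals of same-numbered siLUC and siLRH-1 #1 arrays correlated at -0.015 to 0.034, and the replicate block gave 2758, 2026, 899 and 1273 probes. Of 255 named genes called against siLUC, 81 kept the call in every alternative and 174 lost it in at least 1, mostly against the fold of 1.2, and none of the directions reversed. The 24 largest changes kept their calls throughout. Background correction of the non-normalized signals, a detection filter and a slide block were not run, since the columns of that table match no label.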
